A study of Homo sapiens with 6 samples.

Results

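The cytosolic HSP70 and HSP110 chaperone genes are 10 genes of the 63086 listed in the count table, and all 10 passed the filter on low counts that left 16046 genes for testing. They were chosen by family membership with the knockout against wild-type values of this experiment already known, so that contrast is given for them as a description, with no test. The RNA was from A375, a human melanoma cell line with an activating BRAF mutation, for which the labels give no drug or stress treatment. The groups were 3 libraries of wild-type cells and 3 libraries of DUS1L knockout cells, in which the gene was targeted with CRISPR/Cas9 and clones were selected. The wild-type cells were carried in parallel and not targeted. DUS1L encodes a dihydrouridine synthase that modifies tRNA, and the comparison asks which transcripts differ when the gene is disrupted. How many knockout clones were used is not given in the sources used here, so a difference between genotypes and a difference between a clone and its parental population cannot be told apart.

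HSP70 proteins bind exposed hydrophobic stretches of unfolded proteins and release them in cycles of ATP hydrolysis. J-domain proteins deliver the client and trigger hydrolysis, and nucleotide exchange factors, among them the HSP110 proteins, let the client go. Some copies are made all the time, while others are held nearly silent until damaged protein accumulates and frees the transcription factor HSF1, which binds heat shock elements upstream of these genes. Cancer cells often carry a raised basal level of the inducible copies.

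By role, the inducible HSP70 copies are HSPA1A, HSPA1B and HSPA6, and HSPA8 is the constitutive cytosolic HSP70, also known as HSC70. The HSP110 branch holds HSPH1, HSPA4L and HSPA4, of which the first pair were grouped here with the stress-inducible genes and HSPA4 with the constitutive ones. HSPA14, which works at the ribosome, and HSPA2, best known for its role in spermatogenesis, were also grouped as constitutive. HSPA1L, a copy expressed mainly in testis, stands by itself. HSPA1L, HSPA1A and HSPA1B lie side by side on chromosome 6, with 259 bases between the starts of HSPA1L and HSPA1A, which point away from each other, and 9791 bases from the end of HSPA1A to HSPA1B.

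The bases just before the transcription start are shown for the genes that carry the contrast: the inducible copies HSPA1A, HSPA1B and HSPA6, the HSP110 gene HSPH1 and the constitutive HSPA8. Each is the 250 bases upstream of the RefSeq start (GRCh38.p14), in the direction of the gene, at chr6:31815293-31815542 (plus strand), chr6:31827488-31827737 (plus), chr1:161524290-161524539 (plus), chr13:31162389-31162638 (minus) and chr11:123062137-123062386 (minus) in the order given. Capitals mark matches to a pair of inverted heat shock units, GAANNTTC or TTCNNGAA.
HSPA1A: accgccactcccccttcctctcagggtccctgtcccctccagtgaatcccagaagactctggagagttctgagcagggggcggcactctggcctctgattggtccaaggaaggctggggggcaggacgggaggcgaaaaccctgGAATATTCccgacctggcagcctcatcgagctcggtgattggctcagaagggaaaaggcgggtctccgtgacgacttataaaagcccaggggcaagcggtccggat
HSPA1B: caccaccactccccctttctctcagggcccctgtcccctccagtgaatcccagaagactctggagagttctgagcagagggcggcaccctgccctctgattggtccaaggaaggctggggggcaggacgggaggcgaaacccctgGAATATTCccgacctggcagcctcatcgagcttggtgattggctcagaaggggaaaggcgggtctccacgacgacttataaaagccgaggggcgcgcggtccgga
HSPA6: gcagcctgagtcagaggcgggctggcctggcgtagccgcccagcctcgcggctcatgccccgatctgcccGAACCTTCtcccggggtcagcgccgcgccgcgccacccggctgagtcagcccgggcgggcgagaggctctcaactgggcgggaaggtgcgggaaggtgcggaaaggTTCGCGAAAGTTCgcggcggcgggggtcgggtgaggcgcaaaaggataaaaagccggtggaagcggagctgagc
HSPH1: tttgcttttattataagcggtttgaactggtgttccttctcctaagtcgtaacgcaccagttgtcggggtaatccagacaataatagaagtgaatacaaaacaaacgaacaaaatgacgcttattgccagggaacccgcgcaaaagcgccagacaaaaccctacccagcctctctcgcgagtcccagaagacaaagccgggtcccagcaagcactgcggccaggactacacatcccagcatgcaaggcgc
HSPA8: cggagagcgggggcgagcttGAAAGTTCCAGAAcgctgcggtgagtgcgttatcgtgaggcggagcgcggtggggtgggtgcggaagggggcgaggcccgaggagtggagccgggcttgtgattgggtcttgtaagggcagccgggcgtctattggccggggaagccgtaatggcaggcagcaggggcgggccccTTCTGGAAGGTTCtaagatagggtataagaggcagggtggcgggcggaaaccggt
The upstream stretches of HSPA1A and HSPA1B were identical at 235 of 250 bases (94.0%), and both held 1 pair of units about 100 bases from the start, with a TATA box (TATAAA) and 2 CCAAT boxes. HSPA6 held 3 pairs and HSPA8 held 4, counting overlapping ones. Some of these joined into 3 units in a row, GAANNTTCNNGAA or TTCNNGAANNTTC, at 1 place in HSPA6 (a run of 13 bases that begins 74 bases before the start) and at 2 places in HSPA8. HSPH1 had no match in this window. On either strand, the pair occurred in 11.6% and the run of 3 units in 0.441% of all 35116 upstream windows of the same length. TATAAA occurred in 10.7% of windows and CCAAT in 32.0%. A match is only these letters and not a measured binding site. RefSeq windows were found for 9 of the 10 genes, and HSPA14 had none. HSPA4L has 3 listed starts, of which 1 window held a pair of units, and the windows of HSPA2 and HSPA4 held none.

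**Figure D1:**
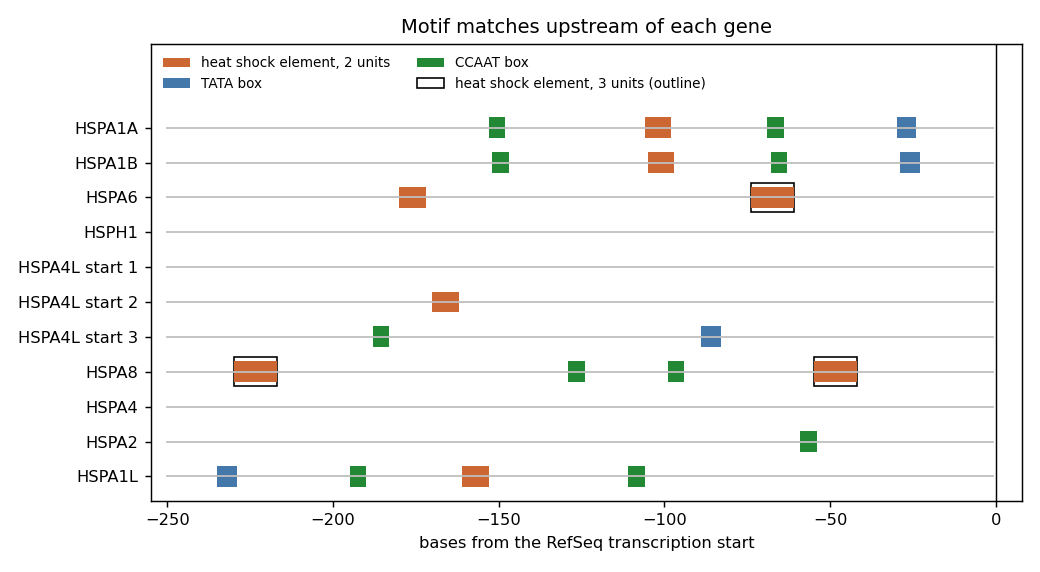
Matches to heat shock elements, CCAAT boxes and TATA boxes in the 250 bases upstream of each RefSeq start (x axis, bases from the start; 1 line per start). Colours name the motif and black outlines mark runs of 3 heat shock units, which are in HSPA6 and HSPA8.

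The libraries held 17121315 to 18861514 estimated counts. Levels are given as CPM, counts scaled to the library size, and the limit that a count of 0 allows, 3 counts, corresponds to 0.159 to 0.176 CPM. DUS1L, the targeted gene, averaged 77.6 ± 2.2 CPM across wild-type libraries against 54.4 ± 1.1 CPM across knockout ones (SD, n = 3 each; log2 fold change -0.51, adjusted p = 1.7e-06, edgeR). Where its reads fall relative to the edited site was not tested. Of 7 melanocyte lineage markers, SOX10 was well expressed and TYR, DCT, PMEL and MLANA were under 10 counts in every library, TYR at 0. Summed, these markers came to between 612 and 648 CPM per wild-type library, against 479 to 546 CPM per knockout library. Most of the sum was SOX10, at 603.8 ± 16.9 and 480.5 ± 33.8 CPM (SD, n = 3 each; log2 fold change -0.33, adjusted p = 5.11e-05, edgeR). MITF, at 19.6 ± 0.7 and 20.6 ± 1.2 CPM, was not called. Summed fibroblast markers (5 genes, none at 0) were at 25.6 to 70.3 and 54.0 to 170 CPM in the same order. Germ cell markers (5 genes, with PRM1 at 0 and DDX4, DAZL and ACRV1 under 10 counts) were at 0.235 to 0.872 and 0.621 to 1.502 CPM. Keratinocyte markers (4 genes, with KRT1 and KRT5 at 0) were at 53.2 to 58.8 and 49.98 to 59.0 CPM, and endothelial markers (3 genes, with CDH5 under 10 counts) at 1.12 to 2.85 and 0.956 to 2.20 CPM. The part of any of these in the chaperone values was not tested.

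The upstream window of HSPA1L covers the same DNA as that of HSPA1A over 241 bases, read from the other strand, so both hold the same pair of heat shock units. In wild-type cells HSPA1L stood at 0.632 ± 0.231 and HSPA1A at 243 ± 54.0 CPM per kilobase of exon (SD, n = 3 each). In what follows, CPM values are in the order of replicates 1, 2 and 3. HSPA1L measured 2.41, 1.14 and 1.69 CPM in wild-type against 1.12, 2.02 and 1.30 CPM in knockout cells, between 21 and 41 counts per library, and the groups overlapped (log2 fold change -0.24, SE 0.36). HSPA1A measured 498, 519.8 and 733 CPM in wild-type against 4392, 3473 and 4362 CPM in knockout cells (6.98-fold, log2 fold change 2.80, SE 0.22).

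Every knockout value of HSPA1A lay well above every wild-type value, and among the wild-type libraries replicate 3 was the highest. HSPA1B, its near-copy, measured 203, 204 and 302 CPM against 1635, 1338 and 1582 CPM (6.42-fold, log2 fold change 2.68, SE 0.22), with the same library highest and lowest in the knockout group and the same one highest in wild-type. The coding sequences of the pair, 1926 bases each, differed at 4 bases, and 72.4% of the 100-base windows of the HSPA1A transcript also occur in HSPA1B or in a noncoding gene that overlaps it. Both genes had fractional counts in all 6 libraries. The share of the pair's counts assigned to HSPA1A was 71.0%, 71.8% and 70.8% in wild-type and 72.9%, 72.2% and 73.4% in knockout libraries. How reads were divided between the copies is not given in the sources used here, and the sum does not depend on it.

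Summed, HSPA1A and HSPA1B came to 701, 724 and 1035 CPM in wild-type against 6027, 4811 and 5945 CPM in knockout cells, with a wide gap between the groups. The knockout mean was 5595 ± 679 CPM against 820.2 ± 187 CPM (SD, n = 3 each), 6.82-fold higher (log2 fold change 2.77, SE 0.22). Counts from bulk RNA do not tell apart more cells with the transcript and more transcript per cell. The noncoding gene, ENSG00000285565, overlaps HSPA1B on the same strand. It had 0.46, 36.4 and 0 estimated counts in wild-type and 309, 78.2 and 169 in knockout libraries, while HSPA1B had 23153 or more in each knockout library.

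HSPA6, the copy that most cells make only under stress, showed the largest ratio of the 10 genes and, among wild-type libraries, the widest spread. It measured 6.35, 9.43 and 25.7 CPM in wild-type against 289, 229 and 182 CPM in knockout cells. The groups did not overlap, and the lowest knockout library was still well above wild-type replicate 3. The means were 13.8 ± 10.4 and 233 ± 53.5 CPM (SD, n = 3 each), 16.9-fold apart (log2 fold change 4.08, SE 0.55). Without wild-type replicate 3 the log2 fold change was 4.88 (SE 0.37). Of its 100-base transcript windows, 27.8% also occur in the pseudogene HSPA7, which was listed at 0 in all 6 libraries.

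The HSP110 genes differed between the genotypes to unequal extents. HSPH1, also called HSP105, measured 437, 431 and 463 CPM in wild-type against 1085, 1016 and 1012 CPM in knockout cells (2.34-fold, log2 fold change 1.23, SE 0.05). HSPA4L, its relative of lower level, measured 22.1, 19.4 and 21.5 CPM against 48.6, 46.4 and 42.5 CPM (2.19-fold, log2 fold change 1.13, SE 0.09). HSPA4, the constitutive HSP110, differed much less, from 344, 333 and 338 CPM to 421, 414 and 409 CPM (1.23-fold, log2 fold change 0.29, SE 0.05). In all 3 HSP110 genes every knockout value lay above every wild-type value, as it did in 25.4% of all tested genes. Within each library the ratio of HSPH1 to HSPA4 counts went from 1.31 ± 0.05 to 2.50 ± 0.07 (SD, n = 3 each), a ratio that does not depend on how libraries are scaled.

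Among the constitutive HSP70 genes, HSPA8 was higher in every knockout library, at 5704, 5680 and 6034 CPM, than in any wild-type library, at 3998, 3696 and 3679 CPM. The ratio was 1.53-fold (log2 fold change 0.61, SE 0.05). HSPA2 measured 6.88, 7.15 and 7.09 CPM in wild-type against 7.97, 9.13 and 8.91 CPM in knockout cells (log2 fold change 0.30, SE 0.14), with no overlap but a small gap. HSPA14 measured 27.3, 23.5 and 25.2 CPM against 22.9, 27.0 and 26.2 CPM, and its groups overlapped (log2 fold change 0.003, SE 0.095).

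The value of HSPA14 depends on how reads at its locus were divided. MSANTD7 starts 4 bases from HSPA14 on the same strand of chromosome 10, and 13.2% of the 100-base windows of the HSPA14 transcript also occur in MSANTD7. MSANTD7 rose from 21.6 ± 1.4 to 32.1 ± 0.5 CPM (SD, n = 3 each; log2 fold change 0.57, adjusted p = 2.42e-05, edgeR quasi-likelihood test). The sum of the pair, computed after the single values were seen, gave a log2 fold change of 0.29 (SE 0.07), with no overlap between the groups.

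**Figure D2:**
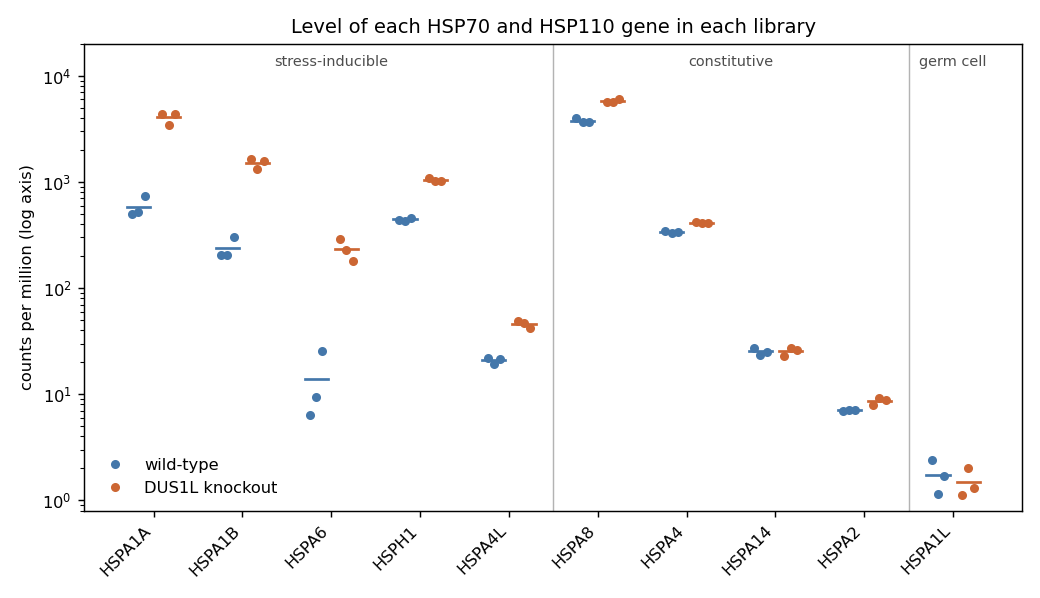
Level of each of the 10 genes in each library (y axis, CPM on a log scale; points, libraries; lines, means of 3). The 5 stress-inducible genes and HSPA8, HSPA4 and HSPA2 have separate groups with knockout above, as have 25.4% of all tested genes. HSPA14 and HSPA1L overlap.

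Across the 10 genes, all 3 knockout values lay above all 3 wild-type values in 8, beside 25.4% of all tested genes that did so and 25.8% that lay wholly below. At an adjusted p under 0.05, 7 of the 10 were called higher, beside 20.5% of all tested genes called higher and 20.7% called lower. Since the genes were picked with these values known, nothing is read from either count. The median log2 fold change was 2.68 (range 1.13 to 4.08) over the 5 inducible genes, 2.00 with HSPA1A and HSPA1B counted once as their sum (an alternative added after seeing the data), and 0.30 (range 0.003 to 0.615) over the 4 constitutive ones, beside -0.004 over all tested genes.

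Together the 10 genes took 0.544%, 0.513% and 0.554% of all estimated counts in wild-type and 1.39%, 1.24% and 1.39% in knockout libraries. These shares are not corrected for length. HSPA8 went from 0.373% ± 0.017 to 0.589% ± 0.020 of all counts (SD, n = 3 each), and HSPA1A with HSPA1B from 0.0807% ± 0.0189 to 0.568% ± 0.071. The ratio of HSPA1A plus HSPA1B counts to HSPA8 counts was 0.175, 0.196 and 0.281 in wild-type and 1.06, 0.847 and 0.985 in knockout libraries. It differed by 2.17 on the log2 scale, with a pooled SD between libraries of 0.28. Every knockout ratio lay above every wild-type ratio. The ratio of HSPA6 to the summed pair was 0.00905, 0.013 and 0.0248 in wild-type and 0.0479, 0.0476 and 0.0306 in knockout libraries, also without overlap.

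**Figure D3:**
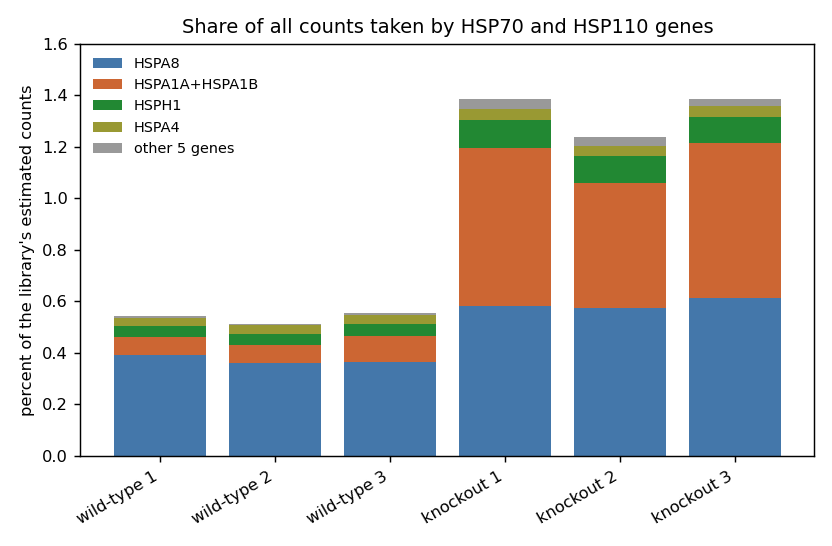
Share of each library's estimated counts taken by the 10 genes (stacked bars, percent of all counts; 3 wild-type and 3 knockout libraries). The stacks reach 0.513% to 0.554% in wild-type and 1.24% to 1.39% in knockout libraries, and the HSPA1A plus HSPA1B block goes from 0.0807% to 0.568% on average.

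Corrected for length, as CPM per kilobase of the union of a gene's exons, the wild-type order was HSPA8 (782 ± 36.9), HSPA1A (243 ± 54.0), HSPA1B (94.0 ± 22.6), HSPA4 (66.7 ± 1.1), HSPH1 (52.9 ± 2.0), HSPA14 (10.1 ± 0.8), HSPA6 (5.87 ± 4.42), HSPA4L (1.83 ± 0.12), HSPA2 (1.28 ± 0.03) and HSPA1L (0.632 ± 0.231; SD, n = 3 for each). Of neighbours in that order, only HSPA14 and HSPA6 overlapped between libraries, since HSPA6 in wild-type replicate 3 reached 10.92. The union of exons is longer than the usual transcript for several genes, 4849 against 2264 bases for HSPA8. With the MANE Select transcript as the length, a choice made after seeing the data, HSPA8 was at 1674 ± 79.1, HSPH1 moved above HSPA4 (84.6 against 70.9), and HSPA2 moved above HSPA4L (2.82 against 1.98). In knockout cells HSPA1A stood above HSPA8 by the union of exons (1696 against 1197 CPM per kilobase) and below it by the MANE transcript (1698 against 2564), so the order of that pair rests on the length used. The separate levels of HSPA1A and HSPA1B also depend on how reads were divided between them. Their summed level was 336.7 ± 76.6 in wild-type by the union of exons. In knockout cells it was 2299 by the union of exons, above HSPA8, and 2302 by the MANE transcript, below HSPA8.

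The spread among libraries of one genotype was unequal between the genes. In wild-type the coefficient of variation was 75.2% for HSPA6 and 22.8% for the HSPA1A and HSPA1B sum. It was between 1.68% and 7.5% for HSPH1, HSPA4L, HSPA8, HSPA4, HSPA14 and HSPA2. In log2 CPM the wild-type libraries of HSPA6 spanned 2.00 and those of the summed pair 0.56, while the median tested gene spanned 0.23. Wild-type replicate 3 was highest for HSPA6, the summed pair and HSPH1, and also for the partner genes DNAJB1, BAG3 and STIP1. It was highest too for HSF1, HSP90AA1 and HSPB1, a small heat shock protein gene, and for HSPA5 and HYOU1, whose knockout means were lower. The same library was lowest for HSPA8, DNAJA1 and HSF2, at -0.04, -0.06 and -0.09 from their wild-type means in log2 CPM. Wild-type replicate 1 was highest for HSPA8, HSPA4L, HSPA4, HSPA14, HSPA1L, DNAJA1, HSF2 and HSPA9, and replicate 2 for HSPA2 and HSP90AB1. The wild-type spans of HSPH1 (0.10) and BAG3 (0.17) were below that of the median tested gene. In the knockout group replicate 1 was highest for HSPA6, the summed pair, HSPH1 and HSPA4L, and for DNAJB1, BAG3 and HSPB1. That library was also highest for HSPA4, DNAJA1, HSPA9 and HSF1. It was the lowest of the knockout libraries for HSPA14, HSPA2, HSPA1L, HSP90AA1 and HSPA5. How often a given library is highest among all tested genes was not tested. HSPA1L also spread widely, with a coefficient of variation of 36.6%, at 21 to 41 counts per library.

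**Figure D4:**
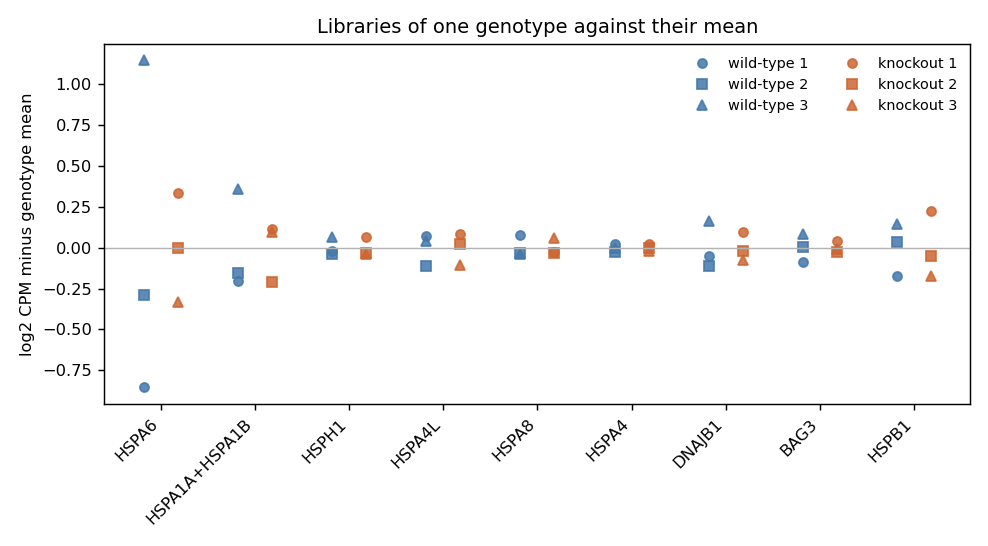
Each library's log2 CPM minus the mean of its genotype (y axis), for HSP70 and HSP110 genes and 3 further heat shock genes (points, libraries; colour, genotype). HSPA6 spans 2.00 in wild-type, and wild-type replicate 3 lies highest for HSPA6, HSPA1A+HSPA1B, HSPH1, DNAJB1, BAG3 and HSPB1. Wild-type replicate 1 lies highest for HSPA4L, HSPA8 and HSPA4.

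Of 6 HSP70 superfamily genes outside the cytosolic set, 5 had enough counts to test, and their median log2 fold change was -0.11. Among these 5, 2 were called lower, beside 20.7% of all tested genes, both coding for proteins of the endoplasmic reticulum. HYOU1, the reticulum's HSP110, fell from 695.5 ± 29.6 to 544.6 ± 20.6 CPM (SD, n = 3 each; log2 fold change -0.35, SE 0.05, adjusted p = 1.17e-05, edgeR). HSPA5, also called BiP, fell from 2576 ± 171 to 2286 ± 64.4 CPM (SD, n = 3 each; log2 fold change -0.17, SE 0.05, adjusted p = 0.012). The HSPA5 call was lost when wild-type replicate 3 was left out (adjusted p = 0.0602), when knockout replicate 1 was (0.0536) and when scaled by library size alone (0.0561). HSPA9, the mitochondrial HSP70, was at 757 ± 77.9 and 816.5 ± 6.4 CPM with no call (log2 fold change 0.11, adjusted p = 0.159, edgeR), but without wild-type replicate 1 it was called higher (log2 fold change 0.19, adjusted p = 0.00156). Scaled by library size alone it was called too (log2 fold change 0.15, adjusted p = 0.0459). HSPA12A and HSPA13 had log2 fold changes of -0.11 and -0.03 and were not called, and HSPA12B, at 0.106 to 1.015 CPM, was not tested.

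Of 23 genes for partners of HSP70 in its cycle, 11 were called higher and 2 lower, where 20.5% and 20.7% of all tested genes were, with a median log2 fold change of 0.21, beside -0.004 over all tested genes. The list was chosen with earlier results of these data known. Of the 13 J-domain genes among them 8 were called higher and 1 lower, beside the same 20.5% and 20.7% of all tested genes. DNAJB1, the main J-domain partner of inducible HSP70, measured 268, 257 and 311.5 CPM in wild-type against 1110, 1023 and 986 CPM in knockout cells (log2 fold change 1.90, SE 0.07, adjusted p = 9.99e-12, edgeR). DNAJB4, a close relative, rose from 29.1 ± 1.5 to 84.2 ± 8.0 CPM (SD, n = 3 each; log2 fold change 1.54, adjusted p = 1.01e-11, edgeR). DNAJA1, DNAJB2 and DNAJB6 also rose, with log2 fold changes of 0.71, 0.86 and 0.36. DNAJB11, which serves BiP in the endoplasmic reticulum, fell by 0.36 (adjusted p = 0.000203, edgeR). DNAJB9, a J-domain gene of the same compartment that was named with its values known, went the other way. It rose from 35.5 ± 6.9 to 55.3 ± 1.9 CPM (SD, n = 3 each; log2 fold change 0.64, adjusted p = 0.00053, edgeR). Set against its partners within each library, DNAJB1 counts were higher relative to HSPA8, going from 0.0738 ± 0.0095 to 0.179 ± 0.016 DNAJB1 counts per HSPA8 count, and lower relative to the HSPA1A and HSPA1B sum, going from 0.346 ± 0.042 to 0.188 ± 0.024 (SD, n = 3 each), with no overlap in either ratio. These ratios were not tested.

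Of the 7 nucleotide exchange factors outside the HSP110 family, 2 were called higher, a share near the 20.5% of all tested genes. BAG3, which directs HSP70 clients to autophagy, measured 199.8, 212 and 224.5 CPM against 513, 489 and 496 CPM (log2 fold change 1.23, SE 0.05, adjusted p = 9.83e-13, edgeR), and BAG1 was the other. BAG2, BAG4, BAG5, BAG6 and HSPBP1 were not called, with log2 fold changes between -0.08 and 0.14. STIP1, or HOP, which links HSP70 to HSP90, rose by 0.22 (adjusted p = 0.00257). STUB1, the ubiquitin ligase CHIP that marks HSP70 clients for degradation, fell from 95.6 ± 5.7 to 74.6 ± 2.4 CPM (SD, n = 3 each; log2 fold change -0.36, adjusted p = 0.000104), and ST13 was not called. The J-domain genes DNAJA2, DNAJA3, DNAJA4 and DNAJC7 were not called either.

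The transcript of HSF1 itself, the factor that drives the inducible copies, was not called. It measured 108, 117 and 122 CPM in wild-type against 140.2, 117 and 125 CPM in knockout cells, which overlap (log2 fold change 0.14, SE 0.07, adjusted p = 0.108, edgeR). HSF1 was called higher when scaled by library size alone (adjusted p = 0.0402) and without knockout replicate 2 (adjusted p = 0.0456). HSF2 and HSF4 were not called, and HSBP1, which codes for a protein that binds heat shock factors, fell by 0.28 (adjusted p = 0.000632). Known HSF1 targets outside the HSP70 family were called higher in 16 of 17 genes, beside 20.5% of all tested genes, and the 21 genes of regulators and targets together had a median log2 fold change of 0.30. This list too was chosen with earlier results known.

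HSP90AA1, the inducible cytosolic HSP90, rose from 3571 ± 196 to 5034 ± 90.8 CPM (log2 fold change 0.50, adjusted p = 1.39e-07, edgeR), whereas its constitutive counterpart HSP90AB1 was at 1766 ± 62.0 and 1806 ± 54.8 CPM (SD, n = 3 each; log2 fold change 0.03, adjusted p = 0.634). The difference between that pair was not tested. HSPB1 and HSPB8, which code for small heat shock proteins, rose 2.11-fold and 2.83-fold, and IER5 and DEDD2, further HSF1 targets, 2.20-fold and 1.83-fold. CRYAB, another small heat shock protein gene, named after its values were seen, had the highest log2 fold change of these genes, 3.32 (SE 0.40, adjusted p = 1.8e-06), at 0.401 ± 0.257 and 4.04 ± 1.42 CPM (SD, n = 3 each). Its wild-type level was low and uneven, at 0.235, 0.271 and 0.698 CPM, where 3 counts correspond to 0.163 to 0.176 CPM.

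**Figure D5:**
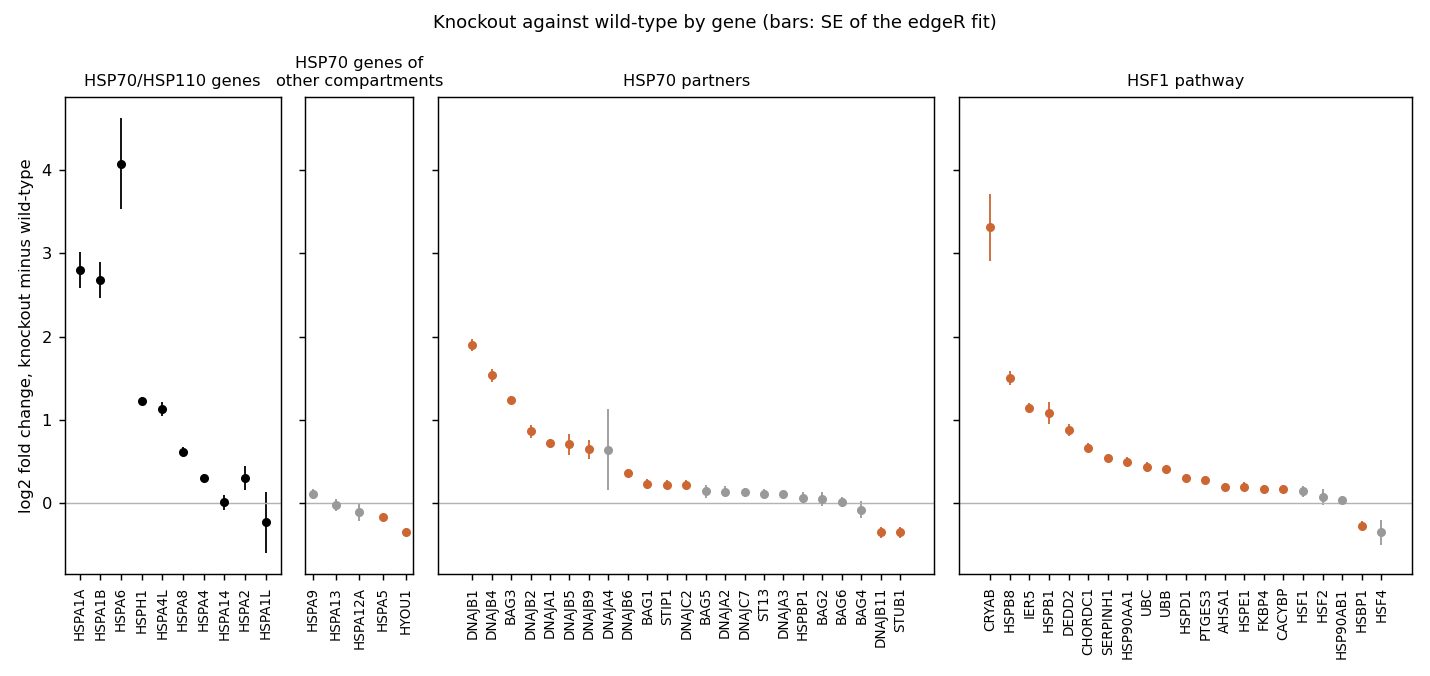
Log2 fold change of knockout against wild-type (y axis) with its SE (bars) for the 10 genes in black, and for HSP70 genes of other compartments, HSP70 partners and HSF1 pathway genes, in orange where called at an adjusted p under 0.05 and in grey where not. Values run from 4.08 for HSPA6 to -0.36 for STUB1, DNAJB11 and HSF4 and to -0.35 for HYOU1.

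Genes whose level followed the HSPA1A and HSPA1B sum most closely over the 6 libraries, by Pearson r of log2 CPM over 11014 protein-coding genes whose mean reached 5 CPM, were SPRED2, ELF4, TXNRD2, RMND5A and DNHD1, with r from 0.9982 to 0.9996. Those closest to HSPA6 were PER1, TINAGL1, RREB1, SLC30A7 and AXL, with r from 0.9956 to 0.9976. An r of 0.95 or more with the sum was reached by 938 genes and with HSPA6 by 698. The 6 libraries fall into 2 genotypes, so r is a description of these libraries only. The measure ignores size: the log2 fold changes of the 10 genes named ran from 0.19 (SPRED2) to 1.01 (PER1).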

How the data were processed

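Paired-end RNA-seq libraries were sequenced on a BGISEQ platform from TRIzol-extracted total RNA, per the labels' protocols. Estimated counts, which need not be whole, were deposited by the authors with a row for each gene. The build is GRCh38 (hg38), per the submitters' processing notes, while the aligner, counter, strand setting and annotation release are not given in the sources used here. Of 63086 identifiers, 62541 matched GENCODE release 44, the source of symbols, lengths and positions.

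Estimated counts were rounded, filtered with filterByExpr (minimum count 10), scaled by TMM and compared with edgeR 4.0.16 (R 4.3.3, robust quasi-likelihood, two-sided), with Benjamini-Hochberg adjustment over 16046 genes and a threshold of 0.05. HSPA1A and HSPA1B were summed before rounding. SE is the log2 fold change over the root of F. The procedure was tested on simulated data. Alternatives were DESeq2 1.42.0, other scalings, no filter, a replicate block and leaving out each library. The series text calls the libraries biological replicates, and p-values set the genotype difference against the spread between them. Whether that spread includes differences between knockout clones is not known, since the number of clones is not given.

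The genes and all lists were chosen with earlier results of these data known. Named partners were set by role or, of the rest, as the 3 smallest p per list and direction among called genes. DNAJB9 and BAG1 fell outside these rules and were named with their values known. Fixed likeness rules named 5 genes each by r, with a prior count of 2. Of 6 marker lists, 1 is not reported here.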

Additional observations from a re-analysis of the deposited data

How the results depend on the processing

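Direction held in the summed HSPA1A and HSPA1B value under each alternative run, with log2 fold changes of 2.67 to 2.97 (the highest without wild-type replicate 3) when 1 library was left out, 2.80 and 2.68 for HSPA1A and HSPA1B alone, and 2.77 with DESeq2. The ratio of that sum to HSPA8 differed by 2.03 to 2.37 when 1 library was left out and by 2.20 with HSPA8, HSPA4 and HSPA14 summed as the reference. The number of genes called, 6608, ranged from 5369 to 6637 with 1 library left out and was 5598 with DESeq2. Scaled by library size alone, 58.7% of called genes were higher, against 49.8%. That scaling gave, for HSP70 genes of other compartments, 1 higher and 1 lower call in place of 0 and 2, and leaving out 1 library gave 0 to 1 higher (1 without wild-type replicate 1) and 1 to 2 lower (1 without wild-type replicate 3 or knockout replicate 1). With edgeR as run and with DESeq2 none of them was called higher, and 0 had an unadjusted p under 0.05 in that direction with edgeR. HSF1 pathway genes called lower ranged from 1 to 2 with 1 library left out (2 without wild-type replicate 1). HSP70 partner genes called higher, 11 as run, ranged from 9 (without wild-type replicate 2) to 14 (without wild-type replicate 1) with 1 library left out. Scaled by library size alone they were 15. The HSPA14 and MSANTD7 sum and the MANE Select length were chosen after seeing the data. The cause of these changes was not tested.

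With replicate number as a block, 6241 genes were called and the summed pair had a log2 fold change of 2.785. HSPA6 had 4.13 (SE 0.75). The numbers are not shown to pair the samples: the deviations of same-numbered libraries from their genotype means correlated at -0.03, -0.001 and 0.026 over tested genes, and wild-type replicates 1 and 2 correlated best with another number. With 3 libraries per genotype, and HSPA1L at 21 to 41 counts per library, small differences in that gene were not detectable.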
